A study of Mus musculus with 24 samples.

Results

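Intraflagellar transport and BBSome genes were followed across 24 RNA sequencing libraries of mouse cells, 12 of them from embryonic stem cells, called mESC, and 12 from neural progenitors, called NPC, that were derived from such cells in culture. The genes were chosen by a rule on symbols that uses no measured value, though earlier results of these data were known. It took every gene named Ift or Bbs followed by a digit, and Wdr19, Wdr35, Wdr34, Wdr60, Ttc21b, Traf3ip1, Cluap1 and Arl13b, if listed in the tables of both cell types. The rule found 30 genes, of 17501 genes in the mESC table and 16024 in the NPC table. Each cell type had 6 genotypes of Htt, the huntingtin gene, with 2 libraries each. These were wild type (WT), Htt knockout (KO) and lines carrying, on 1 allele, a CAG knock-in of 20 (Q20), 50 (Q50), 92 (Q92) or 111 (Q111) repeats. The growth protocol gives 89 repeats in place of 92. The knock-in lines form the study's allelic series, and each length is represented by a single line, so repeat length and line cannot be told apart. The mESC grew with LIF on gelatin and irradiated mouse fibroblast feeders, and the NPC grew with FGF and EGF on laminin. The labels do not say whether the replicates were separate cultures, so p-values measure the spread between these libraries, which may be technical.

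Primary cilia are antenna-like projections built on a centriole, and cells keep them by moving cargo along their microtubules. Intraflagellar transport (IFT) trains carry cargo to the tip with kinesin-2 through the IFT-B complex and back to the base with dynein-2 through the IFT-A complex. The BBSome rides on these trains and takes membrane receptors out of the cilium, and loss of its subunits causes Bardet-Biedl syndrome. In neural progenitors the primary cilium is known as a site of Hedgehog signalling, and cilia are taken down before mitosis.

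Expression is given as the deposited normalised CPM, reads scaled to a common library total (CPM) and multiplied by a factor for each library. Recovered reads ran from 58546211 to 81502284 per mESC library and from 48525333 to 118038952 per NPC library. In NPC, Htt was 100.1 and 94.9 CPM in the KO libraries against 137 and 177 in WT, lower by limma at -0.67 on the log2 scale (SE 0.14) without passing adjustment (adjusted p = 0.0673). In mESC it was 139 in the library labelled KO 1 and 68.5 in the library labelled KO 2, against 124 and 113 in WT, so the library labelled KO 1 did not show the lower Htt of its label. Markers of each labelled cell type were expressed. Of 8 pluripotency genes, the 7 in the mESC table summed to 1992 to 3772 CPM in mESC, and the 5 in the NPC table to 4.72 to 108 CPM. Sox2 was not analysed here. Neural progenitor genes, 7 of 8 listed, summed to 2544 to 7135 CPM in NPC and 105 to 520 in mESC. Motile cilium genes (17 chosen, 15 in the NPC table) summed to 18.1 to 41.7 CPM in NPC and, with 16 listed, to 49.8 to 78.5 in mESC. In these bulk samples, fewer cells of a type and less RNA per cell cannot be told apart.

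The promoters of the genes were searched for the X-box, the motif bound by RFX factors, which are known regulators of cilium genes. RefSeq promoters (GRCm38.p6, 250 bases before to 50 after the start, both strands) matched 27 of the 30 genes by symbol, all except Ift80, Ift122 and Ift81. The X-box, searched as GTTNCC and GGNAAC with any 2 bases between them, lay in 1 of these 27, Bbs7, and in 0.451% of all 32851 promoters. One form of its left arm, GTTGCC, which overlaps the X-box where both occur, lay in 11 of 27 (40.7%) against 12.5% of all promoters. Other forms of GTTNCC were not searched for alone. The 11 were Arl13b, Bbs1, Bbs5, Bbs7, Ift140, Ift172, Ift27, Ift57, Ift88, Traf3ip1 and Wdr35. The Bbs7 sequence is shown for its X-box, in capitals, 121 bases before the RefSeq start. Ift22 and Wdr19 are shown because they had the largest called rise and fall in NPC. Neither held GTTGCC or the X-box in the form searched, and looser forms of the X-box were not searched for. Each sequence is the part of the 250 bases before the RefSeq start that lies outside the gene's own span in GENCODE M21. For Bbs7 this leaves out the bases next to the RefSeq start, so 162 are shown. The sequences are from chr3:36613478-36613639 (minus strand), chr5:136907900-136908149 (plus strand) and chr5:65199446-65199695 (plus strand).
Bbs7: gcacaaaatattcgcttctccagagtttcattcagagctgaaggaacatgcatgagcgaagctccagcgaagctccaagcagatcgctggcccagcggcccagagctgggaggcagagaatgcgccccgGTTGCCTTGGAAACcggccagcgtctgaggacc
Ift22: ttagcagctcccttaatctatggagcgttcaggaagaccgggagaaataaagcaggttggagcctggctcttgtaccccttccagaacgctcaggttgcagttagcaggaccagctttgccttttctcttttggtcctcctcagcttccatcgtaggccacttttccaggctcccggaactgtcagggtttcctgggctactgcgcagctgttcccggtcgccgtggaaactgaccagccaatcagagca
Wdr19: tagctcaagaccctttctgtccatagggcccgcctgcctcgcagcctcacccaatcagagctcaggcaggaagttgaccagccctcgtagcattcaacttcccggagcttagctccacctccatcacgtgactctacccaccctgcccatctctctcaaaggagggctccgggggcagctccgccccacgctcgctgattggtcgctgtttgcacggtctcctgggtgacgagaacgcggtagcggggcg

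All 30 genes were expressed in both cell types and all passed the filter for testing, at least 1 CPM in 2 or more libraries of that cell type. The lowest single values were those of Bbs10, which encodes a chaperonin-like protein of BBSome assembly: 1.33 CPM in mESC (Q20 replicate 2) and 0.578 in NPC (Q92 replicate 2, 37 recovered reads). Levels between genes are compared per kilobase of exon, as the mean over the 12 libraries of a cell type. In NPC the highest were Ift74 (20.1 CPM per kilobase), Ift20 (19.2), Ift52 (16.03), Ift140 (13.3) and Ift57 (12.9), and the lowest Bbs4 (2.04) and Bbs10 (2.49). In mESC the highest were Ift52 (21.3), Ift20 (20.6), Wdr35 (16.4), Ift74 (16.3) and Wdr34 (15.9), and the lowest Bbs1 (1.33) and Wdr60 (1.38). Ift74, Ift20 and Ift52 encode train subunits of IFT-B, and they were among the 4 highest in both tables. The tables were scaled separately, so levels were not tested between cell types. How counting treated strand is not given in the sources used here. Ift74, Ift140, Arl13b, Bbs4 and Bbs12 overlap a gene on the other strand (Lrrc19, Tmem204, Stx19, Adpgk and Cetn4) and Cluap1 overlaps Gm20695 on its own strand, so their values are less certain.

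**Figure D1:**
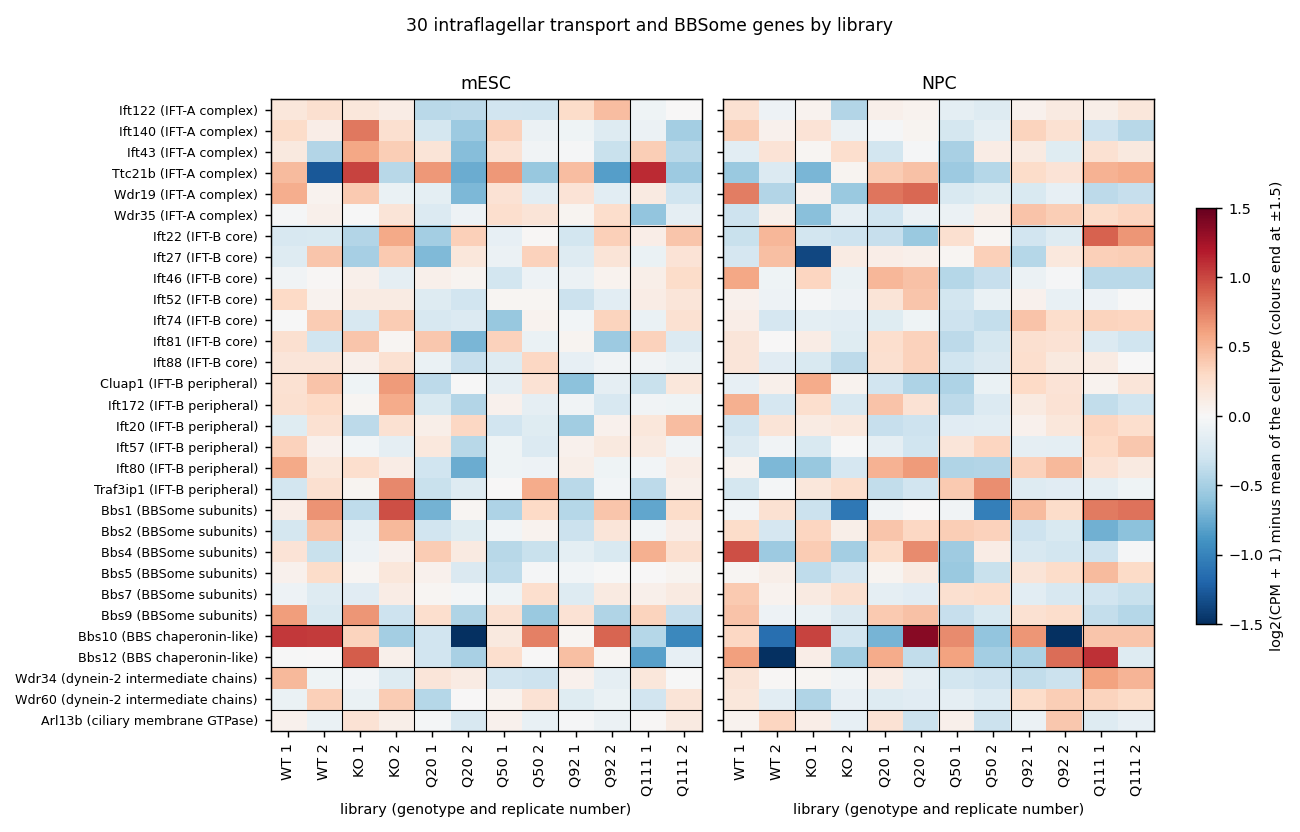
Heat map of the 30 genes (rows, grouped by complex) in the 12 libraries of each cell type (columns), coloured by log2(CPM + 1) minus the gene's mean over the cell type. In NPC the 2 libraries of each knock-in line resemble each other for most genes, while in mESC columns of replicate number 1 and 2 alternate for genes such as Ttc21b and Bbs9.

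Replicate spread set what could be seen. The median SD between replicates over the 30 genes was 0.284 on the log2 scale in mESC and 0.185 in NPC, against 0.36 and 0.253 over all genes tested. In mESC it was lowest for Ift122 (0.063) and highest for Ttc21b (1.04), and in NPC lowest for Wdr34 (0.094) and highest for Bbs10 (1.21). Bbs10 differed 17.7-fold between the NPC Q92 replicates (10.2 and 0.578 CPM), and Bbs12 differed 7.14-fold between the NPC WT replicates (14.7 and 2.06). Over all NPC genes tested, the median absolute log2 difference between replicates was 0.442 in WT and 0.326 in KO. It was 0.111 to 0.166 in the knock-in lines. The main fit of genotype means shares a spread estimate over all 6 genotypes. Its SEs can thus be too wide for knock-in pairs and too narrow for KO against WT.

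In mESC many of these genes moved with the replicate number in the labels. A test of replicate 2 against 1 with the genotype means in the fit, added after seeing the data, called 15 of 30 genes, beside 43.3% of all genes tested. Of these, 9 were higher in replicate 2 (Bbs1, Bbs2, Cluap1, Ift20, Ift22, Ift27, Ift74, Traf3ip1 and Wdr60; 20.5% of all genes) and 6 were lower (Ttc21b, Bbs9, Ift81, Ift43, Wdr19 and Ift140; 22.8%). Ttc21b, an IFT-A subunit also known as IFT139, averaged 65.4 CPM in the 6 libraries of replicate 1 and 23.2 in those of replicate 2, a log2 change of -1.46 (SE 0.09, adjusted p = 1.1e-04). All 6 replicate 1 libraries lay above all 6 replicate 2 libraries, at 53.5 to 84.8 against 15.3 to 28.5 CPM. Bbs1, a BBSome subunit, went the other way, averaging 6.86 in replicate 1 and 13.6 in replicate 2. It rose by 0.89 on the log2 scale (SE 0.13, adjusted p = 0.0012). In NPC the same test called 0 of 30 genes, beside 0% of all genes.

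**Figure D2:**
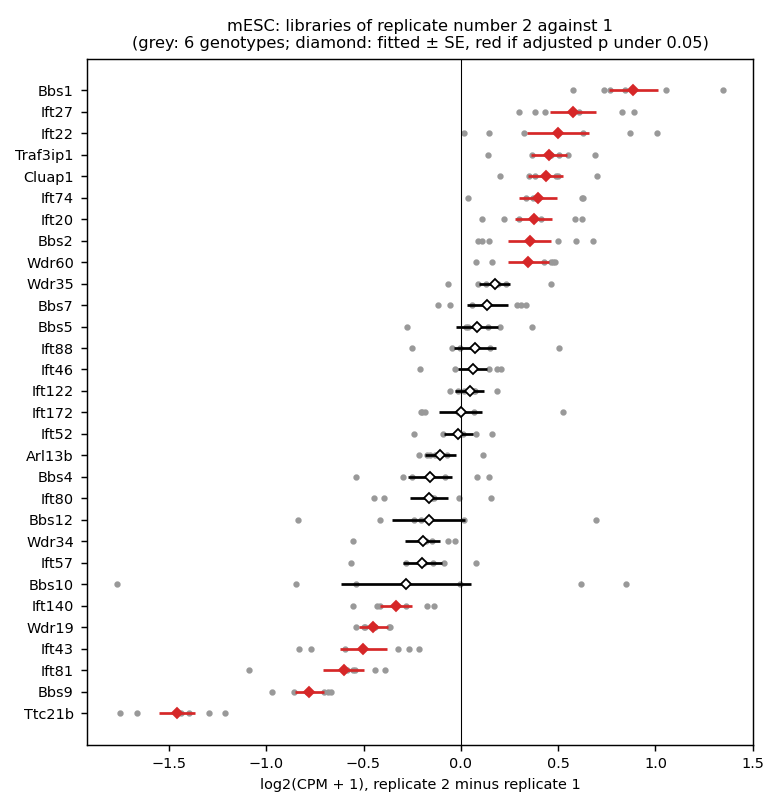
Difference in log2(CPM + 1) between replicate 2 and replicate 1 of each mESC genotype (grey points, 6 per gene) and its fitted value ± SE (diamonds, red where called). Ttc21b lies below 0 in all 6 genotypes with a fitted value of -1.46, and Bbs1 lies above 0 in all 6.

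No gene of the 30 was called between mESC genotypes in the main fit, which did not include the replicate number. A block on that number changed this for Q20 against WT, as given below. A call here is an adjusted p under 0.05 (limma on log2(CPM + 1), Benjamini-Hochberg over all genes), and the share of all genes called was 0.0144% for the libraries labelled KO against WT, 0.323% for Q20 against WT, 0.00719% for Q50 against Q20, 0.00719% for Q92 against Q20 and 0% for Q111 against Q20. At an unadjusted p under 0.05, these comparisons gave 0, 5, 2, 3 and 1 of the 30 genes, beside 3.97%, 12.3%, 6.37%, 5.37% and 2.69% of all genes, and edgeR called 0 in each. The trend over repeat length called 0 (0% of all genes) and the test for any difference among the 4 knock-in lines called 0 (0.0719%), with 2 genes each at an unadjusted p under 0.05 (2.57% and 6.05% of all genes).

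The mESC gene with the smallest p in each comparison is given for its values. Bbs10 was 11.2 and 5.79 CPM in the libraries labelled KO against 19.2 and 19.1 in WT. Its log2 change of -1.14 (SE 0.59) had an adjusted p of 1.00. Ift80, an IFT-B subunit mutated in Jeune thoracic dystrophy, was 32.5 and 23.6 CPM in Q20, below 60.0 and 45.4 in WT, with a log2 change of -0.89 (SE 0.23, adjusted p = 0.157). In Q111 it was 39.0 and 43.6, higher than in Q20 by 0.56 (adjusted p = 0.999). Ift122, an IFT-A core subunit, was 33.6 and 38.3 in Q92 and 20.6 and 20.8 in Q20, a log2 difference of 0.77 (adjusted p = 0.523). Bbs10 was 9.68 and 15.4 in Q50 and 6.94 and 1.33 in Q20, a log2 difference of 1.62 (adjusted p = 0.690).

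The median change of the 30 genes from WT to Q20 in mESC was -0.33, beside -0.04 over all genes. Of the 30, 24 lay below 0, a share that was not counted over all genes. From Q20, which these comparisons share, the medians were 0.25 (Q50), 0.10 (Q92) and 0.17 (Q111), beside 0.00 to 0.02 over all genes. With the replicate number as a block, the Q20 against WT comparison called 5 of the 30 genes, beside 10.6% of all genes in either direction. All 5 were lower in Q20, and the share of all genes called lower was not counted. The 5 were Bbs10 (-2.22, SE 0.58), Ift80 (-0.89, SE 0.17), Wdr19 (-0.71, SE 0.13), Ift122 (-0.61, SE 0.13) and Ift140 (-0.59, SE 0.14). Of these, 3 encode IFT-A subunits, while the IFT-A genes Ift43, Wdr35 and Ttc21b were not called. The adjusted p of Ift80 was 0.0225 with the block and ran up to 0.614 over the 11 alternatives. Cell type markers also differed between mESC Q20 and WT. Pluripotency markers summed to 1992 and 2667 CPM in Q20 and 3772 and 3271 in WT. Neural progenitor markers summed to 300 and 475 in Q20 and 105 and 175 in WT. Fibroblast markers summed to 53.6 and 71.0 in Q20 and 15.2 and 18.0 in WT. Neuron, astrocyte and motile cilium markers overlapped between the lines. The part of this in the changes of the 30 genes was not tested.

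In NPC, KO against WT called 0 of 30 genes by limma, beside 1.42% of all genes, with 1 gene at an unadjusted p under 0.05 (13.3% of all genes) and 0 called by edgeR. Bbs1, the gene with the smallest p, was 16.1 and 9.14 CPM in KO and 19.7 and 23.9 in WT, a log2 difference of -0.79 (SE 0.34, adjusted p = 0.374). The median change of the 30 genes was -0.13, beside 0.03 over all genes. The WT libraries differed from each other for several of the genes. Wdr19, an IFT-A core subunit also known as IFT144, was 65.1 and 27.6 CPM in WT and 39.5 and 25.5 in KO, and Ift46 was 105 and 66.8 in WT and 87.6 and 64.7 in KO. Without WT replicate 2, Bbs9 (-0.58) and Wdr19 (-1.02) were called lower in KO, so the result of 0 rests on that library. The replicate differences of WT and KO correlated (0.467 over genes), as mESC genotypes did, and in both genotypes the summed level of the proliferation genes was higher in replicate 2. In a fit with the replicate number as a block over these 4 libraries, added after seeing the data, 0 genes were called, beside 7.13% of all genes, with 7 at an unadjusted p under 0.05 (23.6% of all genes). Wdr19 (-0.41, SE 0.15) and Bbs9 (-0.33, SE 0.12) were lower in KO than in the WT library of the same number in both pairs, with adjusted p of 0.146 and 0.167 in that fit.

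Q20 against WT in NPC called 1 gene, beside 14.5% of all genes. Ift80 rose from 44.2 and 26.3 CPM in WT to 61.9 and 66.8 in Q20, a log2 change of 0.89 (SE 0.23, adjusted p = 0.0357), and both Q20 libraries lay above both WT libraries. These groups did not overlap, in either direction, for 48.6% of all genes. Ttc21b was 64.7 and 67.1 in Q20 and 33.3 and 42.5 in WT but was not called, while edgeR called Ttc21b and not Ift80. Without WT replicate 1 the test called 5 genes: Ift80, Wdr19 and Bbs2 higher in Q20, and Ift20 and Ift22 lower. It called 2 without WT replicate 2 (Ttc21b higher, Bbs7 lower) and 0 without either Q20 library. The median change of the 30 genes was -0.02, as over all genes.

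Differences among the NPC knock-in lines reached many of the genes, at about the rate of the transcriptome. The test for any difference among the 4 lines called 13 of 30 genes (43.3%), beside 41% of all genes. Against Q20, the test called 7 genes in Q50 (23.3%, beside 18.8% of all genes), 2 in Q92 (6.67%, beside 25.8%) and 9 in Q111 (30%, beside 28.3%). The 3 comparisons share the Q20 libraries. Fits of both groups alone called 9 genes in Q92 (46.6% of all genes) and 17 in Q111 (50.8%). In Q50, 1 rose (Traf3ip1) and 6 fell (Ift80, Ttc21b, Ift46, Bbs9, Ift81 and Ift52), beside 8.05% of all genes higher and 10.7% lower. In Q92, 1 rose (Ift74) and 1 fell (Bbs2), beside 9.88% and 15.9%. In Q111, 4 rose (Ift22, Ift20, Ift57 and Wdr34) and 5 fell (Wdr19, Bbs2, Ift46, Bbs9 and Ift81), beside 12.2% and 16.1%. The median changes were -0.23 (Q50), -0.01 (Q92) and 0.11 (Q111), beside 0.00, 0.06 and 0.03 over all genes. Leaving out any of the 4 libraries of a comparison left 0 or 1 of its genes called: Traf3ip1 in Q50, without Q50 replicate 1 or Q20 replicate 2, Bbs2 in Q111, without Q111 replicate 2 or Q20 replicate 2, and none in Q92.

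**Figure D3:**
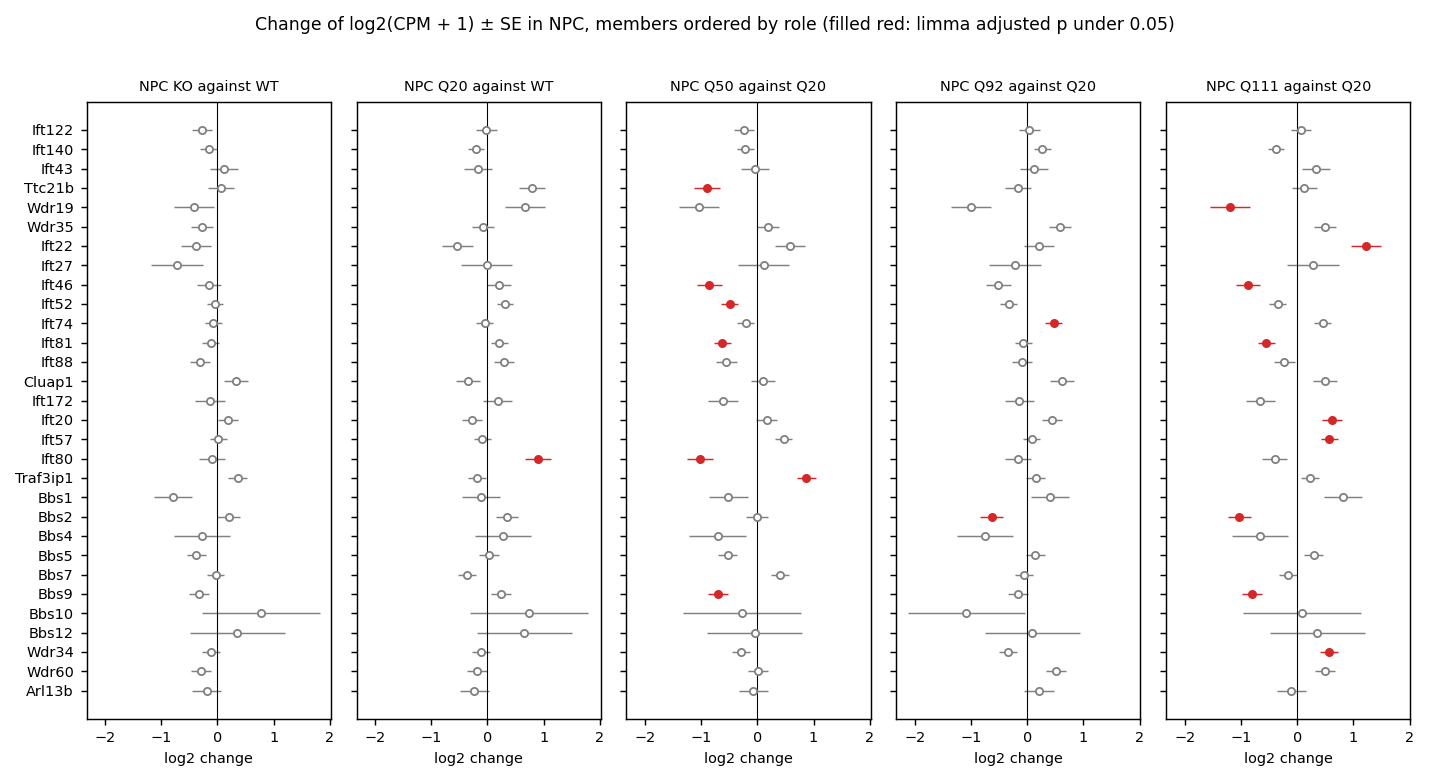
Change of log2(CPM + 1) ± SE of the 30 genes (rows, ordered by complex) in 5 NPC comparisons, with called genes filled in red. Called genes lie on both sides of 0 in the Q50 (1 higher, 6 lower) and Q111 (4 higher, 5 lower) panels, and Bbs10 and Bbs12 have the widest error bars.

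Among the 6 IFT-A genes, Wdr19 stood high in Q20 alone of the knock-in lines. It was 66.4 and 69.4 CPM in Q20, 32.2 and 33.2 in Q50, 32.1 and 34.5 in Q92 and 28.6 and 29.4 in Q111. All 6 libraries of the longer repeats lay below both Q20 libraries, and they lay near WT replicate 2 (27.6) rather than WT replicate 1 (65.1). Such separation from Q20, in either direction, held for 70.1% of all genes tested in Q50, 77.2% in Q92 and 78.2% in Q111. Wdr19 fell by 1.20 on the log2 scale in Q111 (SE 0.36, adjusted p = 0.0380). Its differences of -1.03 in Q50 and -1.01 in Q92 were not called (adjusted p = 0.0819 and 0.0693). Ttc21b followed another pattern: 64.7 and 67.1 in Q20, 33.4 and 36.4 in Q50, 59.7 and 57.0 in Q92 and 71.2 and 73.0 in Q111. It fell in Q50 by 0.90 (SE 0.23, adjusted p = 0.0283), where its level was close to 33.3 and 42.5 in WT. Ift43, Ift122, Ift140 and Wdr35 were not called against Q20. Wdr35, also known as IFT121, was 101 and 97.4 in Q92 and 91.4 and 94.6 in Q111 against 61.0 and 70.9 in Q20.

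The 7 IFT-B core genes moved in both directions. Ift46, a subunit known for carrying dynein arms, was 98.8 and 94.4 CPM in Q20, 51.7 and 54.4 in Q50, 65.6 and 68.9 in Q92 and 52.4 and 52.1 in Q111. It fell in Q50 (-0.85, SE 0.22, adjusted p = 0.0283) and in Q111 (-0.87, SE 0.22, adjusted p = 0.0206). Ift22, a small GTPase of the RAB family, went the other way in Q111: it was 25.2 and 21.6 there against 10.2 and 8.67 in Q20, and 10.3 and 19.2 in WT. It rose by 1.22 (SE 0.27, adjusted p = 0.0126), the largest called rise of any of the 30 genes in a pair of groups. Ift22 was 15.8 and 13.5 in Q50 and 10.7 and 11.4 in Q92, so Q111 lay above the other knock-in lines. Ift74, which binds tubulin together with IFT81, was 71.0 and 63.2 in Q92 and 46.0 and 50.2 in Q20, a rise of 0.47 (SE 0.15, adjusted p = 0.0489). Its partner Ift81 was 31.4 and 34.5 in Q50, 35.8 and 33.6 in Q111 and 49.8 and 53.1 in Q20, and fell in both (-0.63 and -0.55). Ift74 was 66.4 and 66.0 in Q111, above both Q20 libraries, but the change of 0.45 was not called (adjusted p = 0.0519). Ift52, a scaffold of the core, fell in Q50 by 0.49. Ift27 and Ift88 were not called.

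Of the 6 peripheral IFT-B genes, Traf3ip1, which links IFT-B to microtubules, rose in Q50. It was 34.8 and 43.2 CPM there against 20.1 and 21.3 in Q20, 22.8 and 23.3 in Q92, 23.7 and 25.2 in Q111 and 21.7 and 25.8 in WT. The rise was 0.87 on the log2 scale (SE 0.17, adjusted p = 0.0079). Ift80 fell in the same line, to 31.1 and 31.1 from 61.9 and 66.8 in Q20 (-1.02, SE 0.23, adjusted p = 0.0167), and lay within the WT range of 26.3 to 44.2. Ift20, which also works at the Golgi, was 36.3 and 34.5 in Q111 and 22.6 and 23.0 in Q20, a rise of 0.61 (SE 0.18, adjusted p = 0.0359). Ift57, also known as HIPPI for its binding to huntingtin-interacting protein 1, was 44.9 and 48.5 in Q111 and 32.9 and 29.3 in Q20, a rise of 0.57 (SE 0.15, adjusted p = 0.0239). Ift57 was 41.4 and 45.6 in Q50, where it was not called. Ift172 and Cluap1 were not called.

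Of the 6 BBSome subunits, Bbs2 was lower in Q92 and Q111 than in Q20 and Q50. It was 31.4 and 29.4 CPM in Q20, 30.5 and 30.04 in Q50, 18.6 and 19.8 in Q92 and 13.8 and 14.9 in Q111, with 28.6 and 19.5 in WT and 29.6 and 25.02 in KO. Both Q111 libraries lay below all other NPC libraries, and the share of all genes with such a separation was not counted. Bbs2 fell by 0.64 in Q92 (SE 0.20, adjusted p = 0.0484) and by 1.03 in Q111 (SE 0.20, adjusted p = 0.0072). Bbs2 encodes a propeller subunit of the BBSome and lies at chr8:94067954-94098928 (GRCm38, minus strand); at least 1022 reads stood behind each of its NPC values. Bbs9, another propeller subunit, was 24.0 and 26.0 in Q50 and 23.9 and 22.6 in Q111, below 40.6 and 42.1 in Q20. It fell in both, by 0.70 (SE 0.18, adjusted p = 0.0299) and 0.80 (SE 0.18, adjusted p = 0.0140). The KO libraries (28.6 and 26.4) and WT replicate 2 (29.0) lay between these lower levels and Q20. Bbs1, Bbs4, Bbs5 and Bbs7 were not called. Bbs1 was highest in Q111, at 35.5 and 36.4 against 19.5 and 20.4 in Q20, but was not called (SE 0.34, limma adjusted p = 0.105). That SE pools the spread of all 6 genotypes, and the Bbs1 replicates had their largest ratio in Q50 (19.5 and 9.45).

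Of the remaining genes, Wdr34, an intermediate chain of dynein-2, was 29.7 and 27.7 CPM in Q111 and 14.6 to 20.9 in the other knock-in lines. It rose by 0.56 against Q20 (SE 0.16, adjusted p = 0.0346), and in the test for any difference among lines it had, with Bbs2, the smallest adjusted p (0.0088 and 0.0090). The other intermediate chain, Wdr60, the chaperonin-like genes Bbs10 and Bbs12, and Arl13b, a GTPase of the ciliary membrane, were not called in any pair of NPC groups. Arl13b ran from 20.9 to 35.3 CPM over the 12 NPC libraries.

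**Figure D4:**
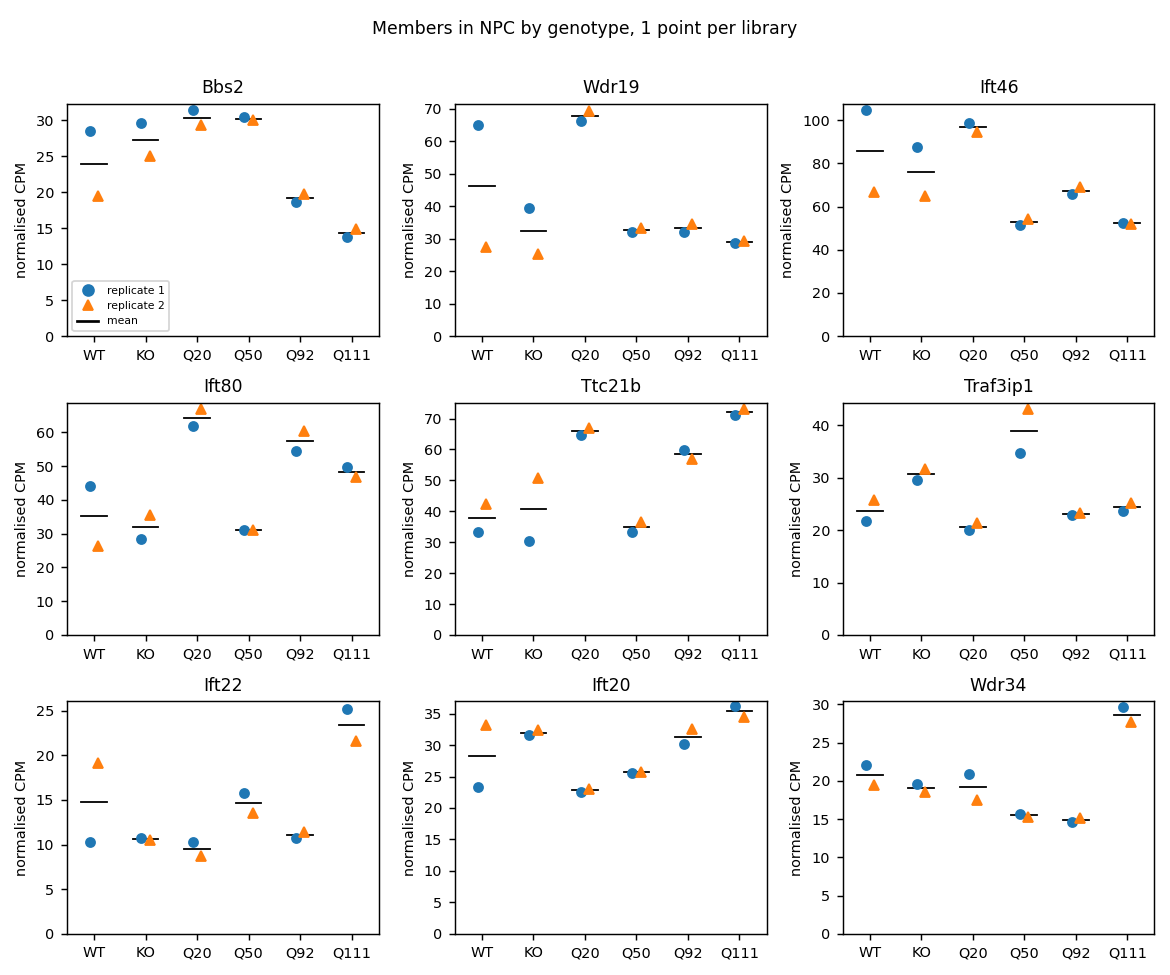
Normalised CPM of 9 genes in the 12 NPC libraries by genotype (circles, replicate 1; triangles, replicate 2; bars, means). Bbs2 is lowest in Q111 (13.8 and 14.9), Wdr19 in Q20 (66.4 and 69.4) lies above the other knock-in lines, and the WT replicates lie apart for Wdr19 and Ift46.

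The reference line mattered for these comparisons. Set against WT instead of Q20, 1 gene was called in NPC Q50 (Traf3ip1, 0.69; 6.62% of all genes), 0 in Q92 (8.66%) and 2 in Q111 (Ttc21b, 0.92, and Ift140, -0.58; 16.6%). Of the 9 genes called in Q111 against Q20, 0 were called against WT.

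The trend over repeat length in NPC called 6 of 30 genes (20.0%), beside 22% of all genes (12% higher and 10.1% lower), with changes given over the 91 repeats from Q20 to Q111. Bbs2 fell by 1.06 (SE 0.20, adjusted p = 0.0082) and Wdr19 by 1.01 (SE 0.26, adjusted p = 0.0280). Ift74 (0.62, SE 0.19, adjusted p = 0.0486), Ift20 (0.61, SE 0.14, adjusted p = 0.0197), Wdr60 (0.60, SE 0.17, adjusted p = 0.0363) and Wdr35 (0.57, SE 0.14, adjusted p = 0.0221) rose. Wdr60 was 19.5 and 19.9 CPM in Q20, 20.4 and 19.3 in Q50, 27.6 and 29.2 in Q92 and 28.7 and 27.8 in Q111. Group means moved one way over all 4 lengths for 2 genes, Ift20 upward and Bbs2 downward (6.67% of the 30, beside 14.8% of all genes). The Wdr19 value rests on the Q20 line: without it the change was -0.20 and not called, while Bbs2 still fell (-1.504), and Bbs1, Ift74 and Ttc21b rose, 4 calls in all beside 14.2% of all genes. With 1 mean value per line, 0 genes were called, as over all genes. Without either Q20 library, or without Q111 replicate 2, Bbs2 was the only one of the 30 called, and without Q111 replicate 1 it was called with Wdr35.

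The slope on repeat length differed between NPC and mESC for 1 of 30 genes, beside 4.86% of all genes. Bbs2 changed by -1.06 over the range in NPC and by 0.20 in mESC, a difference of -1.26 (SE 0.28, adjusted p = 0.0192). In mESC, Bbs2 was 25.9 and 28.0 CPM in Q20, 30.9 and 33.0 in Q50, 25.3 and 36.2 in Q92 and 31.0 and 34.3 in Q111. Both Q50 and both Q111 libraries lay above both Q20 libraries, while Q92 overlapped Q20. Of all mESC genes tested, 32.7% did not overlap, in either direction, between Q50 and Q20, and 22.7% between Q111 and Q20. None of the mESC differences of Bbs2 was called (0.24 in Q50, 0.17 in Q92 and 0.27 in Q111, each with an SE of 0.31 and an adjusted p of 0.999 or above). With the replicate number within each cell type as a block, 2 genes were called (Bbs2, and Wdr19 with a difference of -1.31), beside 8.16% of all genes.

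Related cilium genes in NPC were listed by function. Of 18 tested IFT and BBSome partners outside the chosen 30, such as kinesin-2 subunits, 3 were called in Q111 against Q20, with 2 higher and 1 lower, a lower share than the 28.3% of all genes. Bbip1, a small BBSome subunit, rose by 0.91 (adjusted p = 0.0499), and Kif17, a kinesin-2 motor, fell by 1.11 (adjusted p = 0.0110). In the trend 0 of 18 were called. Of 27 transition zone and basal body genes, 6 were called in the trend, about the share of all genes (22%). Cep290, which tethers the transition zone to the membrane, rose by 1.082 (SE 0.18, adjusted p = 0.0059). Of 7 RFX and FOXJ1 factors, 2 rose in the trend and 0 fell, beside 12% and 10.1% of all genes. They were Rfx7 (0.98, adjusted p = 0.0332) and Rfx4. In Q111 against Q20, 2 rose and 2 fell (12.2% and 16.1% of all genes), Rfx4 most (0.94) and Rfx5 most (-1.46, adjusted p = 1.7e-04). Of 8 cilium disassembly genes, 4 rose in the trend and 0 fell, beside 12% and 10.1% of all genes. Aurka, the mitotic kinase that acts with HDAC6 in cilium disassembly, rose by 1.04 (SE 0.21, adjusted p = 0.0119), and Nek2, Kif24 and Plk1 rose with it.

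The NPC libraries also differed in proliferation genes. All 10 of the list rose in the trend, with a median of 1.41, beside 0.04 over all genes. Their summed level was 1768 CPM in WT replicate 1 and 6414 in WT replicate 2, 3003 and 7176 in KO, 2438 and 2555 in Q20, 4549 and 5262 in Q50, 6304 and 6013 in Q92 and 8949 and 9004 in Q111. The 4 libraries with the lowest sum, WT replicate 1, both of Q20 and KO replicate 1, were the 4 highest of the 12 for Wdr19, Ift46 and Bbs4. These 3 genes and libraries were chosen after their values were seen. For Ift80 and Bbs2, 2 of these 4 libraries were among the 4 highest, and for Ift22 0 were. Ift172, Ift52, Bbs9 and Ift88 had 3 of the 4, and Ift20, Ift57, Wdr35, Wdr60, Ift22, Cluap1 and Traf3ip1 had 3 of the 4 among their 4 lowest. The shares of all genes with such placements were not counted, so these counts say nothing particular to the 30 genes. The cell type markers set the Q20 line, the reference of the knock-in comparisons, apart. Pluripotency markers (5 of 8 listed) summed to 108 and 106 CPM in Q20 and to 4.72 to 26.5 in the other 10 libraries. Neural progenitor markers (7 of 8) summed to 2544 and 2708 in Q20 and to 4461 to 7135 in the others. Markers of other cells moved with the lines too. Fibroblast markers (7 of 7 listed) summed to 306 and 248 CPM in Q20 and 884 and 902 in Q50, against 2.62 to 7.61 in Q92 and Q111 and 22.1 to 36.9 in WT and KO. Astrocyte markers (6 of 6) summed to 2386 to 2828 in Q20 and Q50, 800.2 to 1163 in Q92 and Q111 and 1114 to 3458 in WT and KO. Neuron markers (7 of 7) summed to 747 to 1041 in the knock-in lines and 1255 to 1628 in WT and KO. Motile cilium markers summed to 35.2 to 41.7 in Q20 and Q50 and 18.1 to 28.1 in Q92 and Q111. The part of these differences in the changes of the 30 genes and of the related cilium genes, among them the cilium disassembly genes, was not tested.

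**Figure D5:**
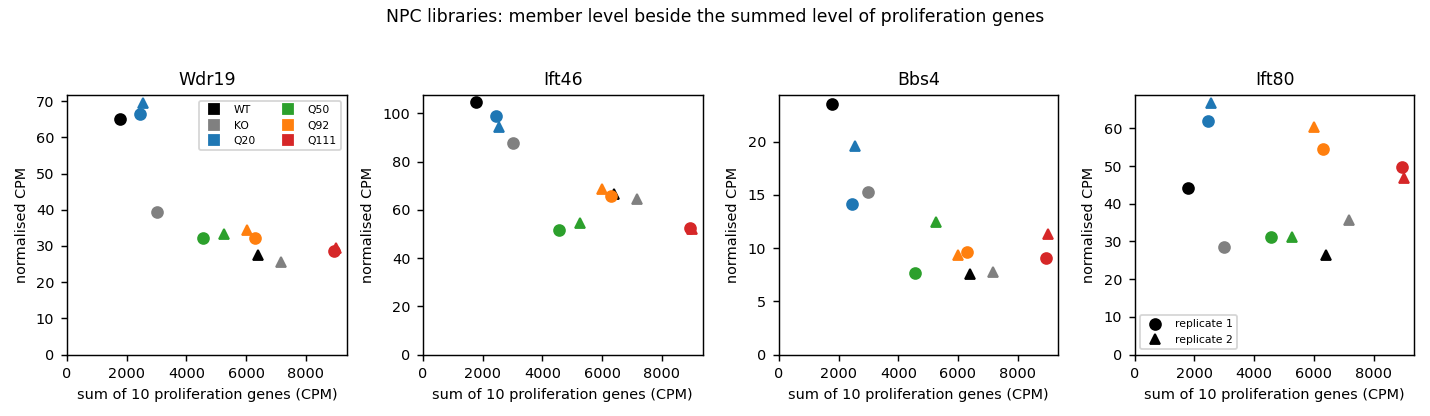
Normalised CPM of 4 genes (vertical) against the summed CPM of 10 proliferation genes (horizontal) in the 12 NPC libraries, coloured by genotype with symbols for the replicate. Wdr19, Ift46 and Bbs4 are highest in the 4 libraries with sums of 1768 to 3003, and Ift80 is not. The share of all genes with this pattern was not counted.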

How the data were processed

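Paired reads of total RNA came from a NextSeq 500, per the labels, and the submitters' processing notes name STAR, CASAVA 1.8 and GRCm38.p6. The deposited values are a signal, normalised CPM, in 1 table per cell type. In each column 100% of values were multiples of the worth of 1 read (tolerance 0.01), which gave back the reads. Totals cover counted reads only, and values carry counting error beside replicate spread. Genes with at least 1 CPM in at least 2 libraries were tested: 13916 in mESC, 13206 in NPC and 12321 in both.

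Values were compared as log2(CPM + 1), which understates changes of low genes, with limma 3.58.1 (moderated statistics, variance trend, two-sided) in R 4.3.3. A fit used the means of the 6 genotypes of a cell type, with a spread estimate shared by all of them. The trend was the slope on repeat length over 8 knock-in libraries, and its difference between cell types an interaction over 16. Calls had a Benjamini-Hochberg adjusted p under 0.05. Gene positions and exon lengths came from GENCODE M21 by Ensembl identifier. The scripts were tested on simulated data.

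Genes given with every library's value were the called ones, up to 4 per direction by size of change, or, with 0 called, the smallest p. In the test for any difference among lines and in the interaction they were the 2 with the smallest p. Of the related lists, the largest called change in each direction could be named, and other genes were chosen after their values were seen; 1 related gene is not reported here. The 30 genes and all lists were chosen with earlier results of these data known.

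Replicate numbers were checked by correlating replicate differences between genotypes. In mESC all 15 pairs of genotypes correlated (0.25 to 0.547), so the numbers pair libraries. In NPC 3 of 15 exceeded 0.1 (median 0.00023), so the numbers were not taken to pair the libraries in general. The 3 were WT with KO (0.467), WT with Q50 (0.17) and KO with Q50 (0.106), and a block over WT and KO alone was added after seeing the data. Alternatives were a pseudocount of 0.5, no filter, a mean of at least 5 CPM, median-of-ratios scaling, edgeR 4.0.16 on the recovered reads, a replicate block, fits of both groups alone, WT as reference, each library left out, 89 repeats, 1 mean per line and no Q20 line.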

Additional observations from a re-analysis of the deposited data

Results flagged for a closer look

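The slope of Bbs2 on repeat length differed between cell types by the test of the interaction: -1.06 over the 91 repeats in NPC and 0.20 in mESC, a difference of -1.26 on the log2 scale (limma adjusted p = 0.0192). It was called under 20 of 21 alternatives, with differences from -1.39 to -1.17, and 16 of the 21 only leave out 1 library. These 20 take the 2 libraries of a line as separate points, though repeat length differs between lines only. The exception was the fit with 1 mean value per line (adjusted p = 0.353), in which 0 of all genes tested were called. In NPC, proliferation genes rose over the same lines, and the part of that in the Bbs2 difference was not tested.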

How the results depend on the processing

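Of 401 values of single genes under alternatives, 399 kept their direction, 128 lost their call and 1 gained one (Ift80 in mESC Q20 against WT, with the block). Both reversals came with WT as the reference in mESC: Bbs10 in Q50 (-0.60) and Ift80 in Q111 (-0.33). Bbs2 kept its call in 16 of 17 alternatives of the NPC trend and all 13 of the test for any difference among lines. Those 16 take the 2 libraries of a line as separate points, and the call was lost with 1 mean value per line. Counts of called genes moved by over 1.5 times as follows. With the replicate block, mESC Q20 against WT gave 5, the difference of slopes 2, NPC Q20 against WT 2, NPC Q92 1 and the NPC trend 3. The block changed no other mESC count. In NPC only WT and KO correlated by replicate number as mESC genotypes did, and the block over these alone gave 0 for KO against WT. NPC Q92 against Q20 gave 1 without a filter, with median-of-ratios scaling and with edgeR, and 0 with a mean of at least 5. NPC Q20 against WT gave 0 with that filter and 2 with median-of-ratios scaling. Fits of both groups alone gave 0 for NPC Q20 against WT, 9 for Q92 and 17 for Q111, where 46.6% and 50.8% of all genes were called in Q92 and Q111. WT as the reference gave 1 in Q50, 0 in Q92 and 2 in Q111. The trend and the difference of slopes gave 0 from 1 mean value per line. Some of these fits hold fewer libraries, and the cause of the moved counts was not tested. Leaving out each library in turn gave 0 to 2 for NPC KO against WT, 0 to 5 for Q20 against WT, 0 to 1 for Q50, 0 to 0 for Q92, 0 to 1 for Q111, 1 to 5 for the trend, 3 to 6 for any difference among lines, 1 to 2 for the difference of slopes and 0 in mESC. There a lone library is assumed to vary like the other groups. With 2 libraries a group, the median SE was 0.307 in mESC and 0.198 in NPC.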
